A study of Mus musculus with 15 samples.

Results

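The transcripts described here are those of the mitochondrial genome, taken as every row of the 6 RNA count tables whose mouse symbol starts with mt-. The rule found 37 genes among 55335 listed: 13 protein-coding genes, 2 ribosomal RNA (rRNA) genes and 22 transfer RNA (tRNA) genes. All 37 matched the RefSeq annotation of GRCm38.p6 (mm10), which lists them on the MT chromosome. RNA came from cultured mouse pre-B cells of the Slp65KO genotype (loss of SLP65, an adaptor of the pre-B cell receptor that is encoded by Blnk), which both groups share. Per the labels, the line was derived from 1 bone marrow cell, grew in medium containing interleukin 7 and received no treatment. One group is 3 libraries titled MSL2WT-preB and the other 3 libraries titled MSL2KO-preB, the knockout line having been made by electroporation of a guide RNA against Msl2. The labels name 1 line per genotype. Whether replicates are separate cultures is not said, so the p-values reflect only how much these samples vary, and that variation could be technical.

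The genotype tags say MSL2KO for the libraries titled wild type and MSL2wt for those titled knockout, and the groups here follow the titles. Every direction below depends on that choice. Msl2 itself was at 97, 99.2 and 92.1 CPM in the libraries titled wild type and at 105, 103 and 121 CPM in those titled knockout, so Msl2 RNA was present at similar levels throughout and did not settle the labels. CPM, the counts-per-million unit, gives reads on a common library size after adjusting libraries by the trimmed mean of M values (TMM). Total reads ran from 14092278 to 20803227 per library. All 14 listed pre-B cell markers had reads, with summed levels of 3042 to 3369 CPM in the libraries titled wild type and 3109 to 3125 CPM in those titled knockout. The 14 include Blnk, the gene of the lost SLP65. Single markers differed more: Il7r, a chain of the interleukin 7 receptor, fell from 76, 96.2 and 73.5 CPM to 24.6, 40.6 and 18.8 CPM (log2 -1.53, edgeR adjusted p = 0.00392), the 1 that edgeR called of 13 tested. DESeq2 called 1 and limma-voom 2. The shares over all tested genes were 4.59% in edgeR, 6.07% in DESeq2 and 4.74% in limma-voom. In 4 of the 13 the groups did not overlap, against 20.9% of all tested genes. Rag2, at most 3.35 CPM, had the highest value (log2 2.23, edgeR adjusted p = 0.223). Whether this bears on the mitochondrial values was not tested. T and NK cell markers summed to 2.32 to 4.84 and 3.29 to 4.66 CPM, with Ncr1 at 0. Myeloid and stromal markers summed to at most 1.01 CPM in any library. The erythroid markers summed to 146 to 169 and 132 to 190 CPM, almost all of it from Hbb-bt, while Hba-a2 was at 0.

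Mammalian mitochondria keep a small circular genome that encodes core subunits of the respiratory chain and of ATP synthase, with the rRNAs and tRNAs needed to translate them. A dedicated polymerase, POLRMT, with the factors TFAM and TFB2M, reads each strand as a long precursor. The tRNAs that punctuate it are cut out and so release the messenger RNAs and rRNAs. MSL2 belongs to the MSL complex, whose acetyltransferase KAT8 (MOF) acts on histones. KAT8 also works in a second complex, NSL, and has been reported inside mitochondria as a regulator of mitochondrial transcription.

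Mitochondrial genes held a small and similar share of the reads in both groups. The share of each library's reads on the 37 genes was 1.61%, 1.68% and 1.44% in replicates 1, 2 and 3 titled wild type and 1.47%, 1.40% and 1.78% in those titled knockout. The groups overlapped, and the highest and the lowest library were both titled knockout. The means were 1.58% ± 0.123 and 1.55% ± 0.201 (SD, n = 3 each), a log2 difference of -0.03 (exact two-sided permutation test, p = 0.9). With 3 libraries against 3, the smallest p this test can give is 0.1. Counting error was far smaller than these differences: the Wilson 95% interval was 1.60% to 1.62% for replicate 1 titled wild type. In bulk RNA, fewer mitochondria, fewer mitochondrial genomes and less RNA from each cannot be told apart.

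**Figure D1:**
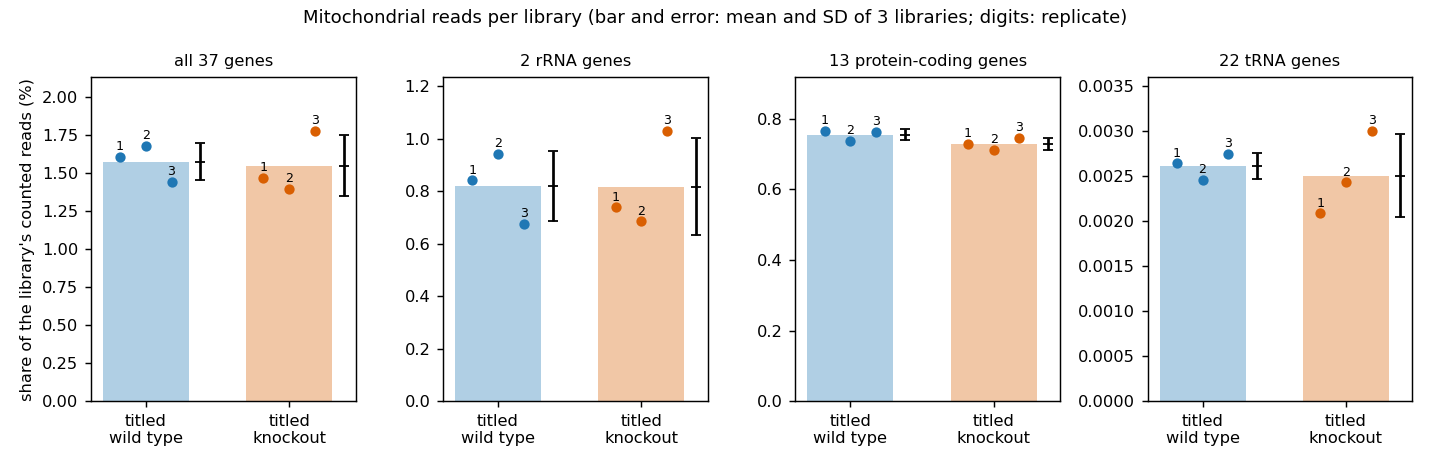
Share of counted reads (%) on all 37 mitochondrial genes and on each class, with 1 point per library, bars at the mean of 3 libraries, error bars of 1 SD and digits for the replicate number. The groups overlap in all 4 panels, and the protein-coding share varies least, from 0.711% to 0.765%.

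The 3 classes differed in how much they varied between libraries. The protein-coding genes took 0.765%, 0.737% and 0.762% of reads in the libraries titled wild type and 0.728%, 0.711% and 0.745% in those titled knockout, so the highest was 1.07 times the lowest. The protein-coding sum was mostly 1 gene, mt-Co1, with 83.1% to 85.5% of the protein-coding reads in each library. On the CPM scale, the highest library was 1.17 times the lowest for mt-Co1 and 1.31 times for mt-Nd6. The rRNA genes took 0.841%, 0.941% and 0.677% and 0.738%, 0.685% and 1.03%, a 1.52-fold range. Replicate 2 titled wild type and replicate 3 titled knockout were high, and replicates 3 titled wild type and 2 titled knockout were low. The tRNA genes together took between 0.00209% and 0.003%. The exact permutation p was 0.2 for the protein-coding share, 1 for the rRNA share and 0.7 for the tRNA share.

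mt-Rnr2 (ENSMUSG00000064339.1, MT 1094 to 2675) encodes the rRNA of the large mitochondrial ribosomal subunit. Summed over the 6 libraries, it had the most reads of all members. In replicate 3 titled wild type, mt-Co1 had more, 102530 reads against 99877. mt-Rnr2 was at 7764, 8602 and 6616 CPM in the libraries titled wild type and at 6895, 6216 and 9616 CPM in those titled knockout. mt-Rnr1 (ENSMUSG00000064337.1, MT 70 to 1024), the rRNA of the small subunit, was at 599, 640 and 459 and at 489, 462 and 722 CPM. Both genes were highest in replicate 3 titled knockout and next highest in replicate 2 titled wild type. Neither differed between groups in edgeR's quasi-likelihood test, with log2 fold changes of -0.02 ± 0.16 (SE, adjusted p = 0.983) for mt-Rnr2 and -0.02 ± 0.17 (adjusted p = 0.978) for mt-Rnr1. The labels state that rRNA was removed with beads before library preparation, so these levels are what was left after removal, whose part in the spread was not tested.

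**Figure D2:**
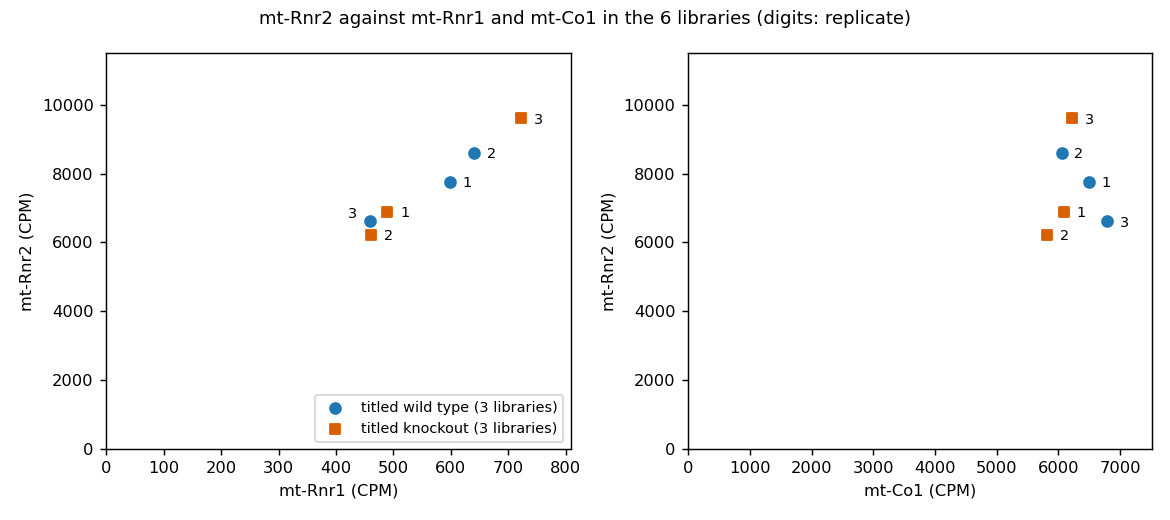
CPM of mt-Rnr2 against mt-Rnr1 (left) and against mt-Co1 (right), with 1 point per library and digits for the replicate number. The 2 rRNAs are high and low in the same libraries (mt-Rnr2 from 6216 to 9616 CPM), while mt-Co1 stays between 5818 and 6792 CPM.

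The ratio of the rRNAs to each other was steadier than either level. Reads on mt-Rnr2 were 13, 13.4 and 14.4 times those on mt-Rnr1 in the libraries titled wild type and 14.1, 13.5 and 13.3 times in those titled knockout. The log2 difference between groups was 0.002 (exact permutation p = 0.9), and the highest library was 1.11 times the lowest. In contrast, the ratio of rRNA reads to protein-coding reads was 1.1, 1.28 and 0.888 in the libraries titled wild type and 1.01, 0.963 and 1.38 in those titled knockout. Its means were 1.09 ± 0.195 and 1.12 ± 0.229 (SD, n = 3 each, exact permutation p = 1).

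The counts were spread very unevenly along the genome in all 6 libraries. Levels of different genes are compared here as reads per kilobase of RefSeq length, on the CPM scale (RPKM), averaged over the 6 libraries. mt-Co1 (ENSMUSG00000064351.1, MT 5328 to 6872), the catalytic subunit of cytochrome c oxidase (complex IV), stood at 4042 RPKM. It held 83.1% to 85.5% of all protein-coding reads in each library. mt-Nd1, of complex I, followed at 603 RPKM and mt-Cytb, of complex III, at 288 RPKM. The complex I genes mt-Nd5 (67.3), mt-Nd2 (57.8), mt-Nd4 (39.9) and mt-Nd6 (35 RPKM) were lower. For mt-Co1, mt-Nd1 and mt-Cytb, the lowest library lay above the highest library of the next protein-coding gene in that order. The libraries of mt-Nd5 and mt-Nd2 overlapped, as did those of mt-Nd4 and mt-Nd6.

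**Figure D3:**
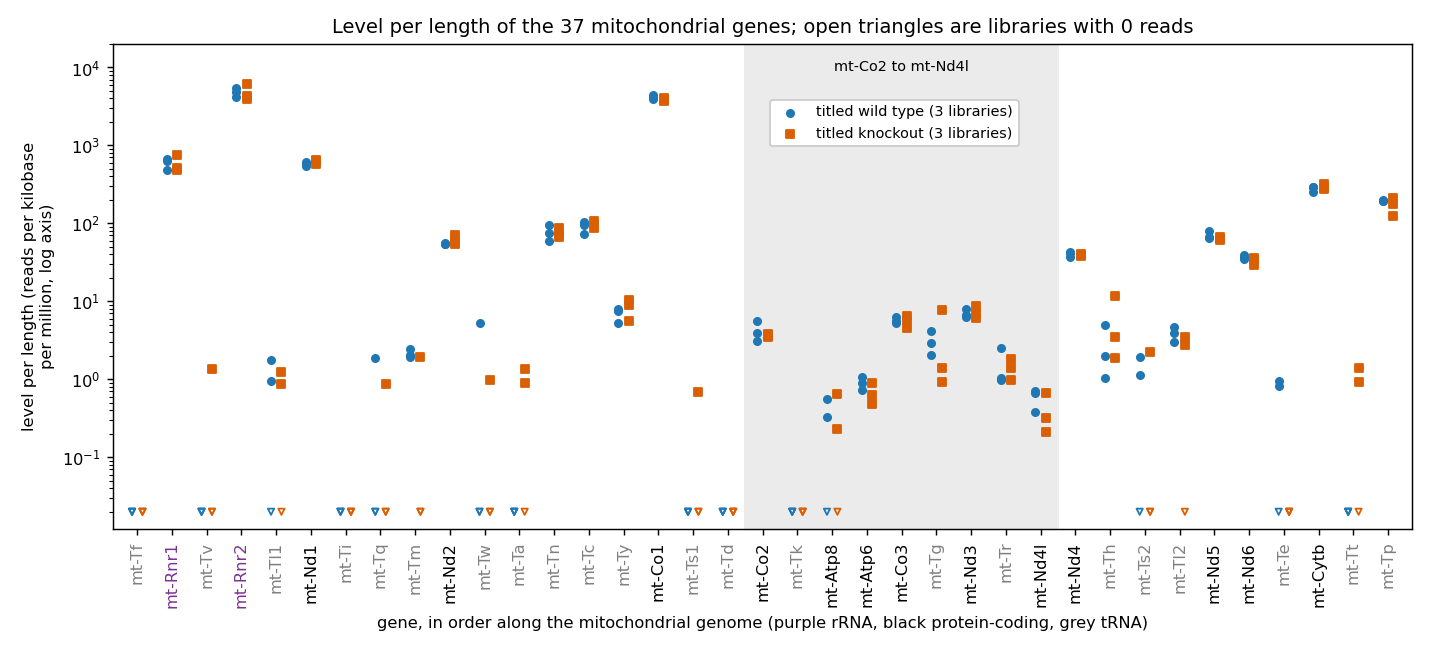
RPKM (log axis) of the 37 genes in genome order, 1 point per library, with open triangles for libraries with 0 reads and a grey band from mt-Co2 to mt-Nd4l. Protein-coding genes inside the band lie between 0.292 and 7.14 RPKM on average and those outside it between 35 and 4042 RPKM.

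A stretch of 6 consecutive protein-coding genes, from mt-Co2 to mt-Nd4l (MT 7013 to 10173), was almost without reads. These genes make up 26.3% of the protein-coding length but held 0.124% to 0.156% of the protein-coding reads of a library, or 134 to 188 reads. mt-Co2, also of complex IV, is read from the same precursor strand as mt-Co1 and was at 3.89 RPKM, 1038-fold below it. mt-Co3, the other complex IV subunit, was at 5.68 RPKM and mt-Nd3, of complex I, at 7.14 RPKM. The ATP synthase genes mt-Atp6 (0.787 RPKM) and mt-Atp8 (0.292 RPKM) and the complex I gene mt-Nd4l (0.492 RPKM) were lower still. The step at the end of the stretch was sharp: mt-Nd4, which overlaps mt-Nd4l by 7 bases, was 81.2-fold above it per length. With only 1 to 3 reads per library on mt-Nd4l, the size of that step is imprecise.

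Nuclear copies of mitochondrial sequence are annotated for part of this stretch. Gm10925 is a pseudogene on chromosome 1 (24613971 to 24614651) that RefSeq lists with mt-Atp6 among its synonyms, and both are 681 bases long. Gm10222 lies nearby (24612404 to 24612700) and has the same length as mt-Nd4l, 297 bases. From the outer end of Gm10222 to that of Gm10925 is 2248 bases, and from the start of mt-Atp6 to the end of mt-Nd4l is 2247 bases. Gm10925 had 59, 62 and 55 reads in the libraries titled wild type and 46, 61 and 54 in those titled knockout. mt-Atp6 itself had 7, 11 and 11 and 7, 13 and 5 reads, fewer than Gm10925 in each of the 6 libraries. The other pair did not repeat this. Gm10222 had 3, 0 and 1 and 1, 3 and 0 reads, or 8 in all. mt-Nd4l had 3, 2 and 3 and 1, 2 and 3 reads, or 14 in all. How reads with several matches were counted is not given in the sources used here, and the part of shared reads in these low counts was not tested. The counts of this stretch are therefore uncertain as levels of its transcripts, and so is the total mitochondrial share.

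Over a list of 12 genes taken as such nuclear copies, all had a read in at least 1 library, with 832 to 1233 reads per library in all. The fewest were on Gm4076, with 1 read over the 6 libraries. For several of the 12, Gm28437 included, RefSeq gave no type or position, and their origin was not tested. The most abundant was Gm28437, at 247 to 383 reads. Of the 7 tested, 0 passed in edgeR, DESeq2 or limma-voom, and 0 had an edgeR p below 0.05 before adjustment. With shares over all genes of 4.59%, 6.07%, 4.74% and 15.4% in turn, a count of 0 among so few is near the background. The smallest unadjusted p was that of Gm12338 (0.0538, adjusted p = 0.337), at 1.13, 1.52 and 0.994 CPM in the libraries titled wild type and 1.74, 1.97 and 1.98 CPM in those titled knockout.

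Of the 37 members, 15 passed the filter on low counts: both rRNA genes, 10 protein-coding genes and 3 tRNA genes. edgeR called 0 of the 15 at an adjusted p under 0.05, against 4.59% of the 13077 genes tested. At an unadjusted p under 0.05 it was also 0, against 15.4% of all genes. DESeq2 and limma-voom each called 0, against 6.07% and 4.74% of all genes. In 0 of the 15 did the libraries of one group lie wholly above or below those of the other, against 20.9% of all tested genes. The log2 fold changes ran from -0.20 to 0.15, with 5 positive and 10 negative. Their median was -0.03 and that of all genes 0.004, and the median size regardless of sign was 0.08 against 0.12. With single libraries left out, the members' median ran from -0.10 without replicate 3 titled knockout (16 members tested) to 0.11 without replicate 2 titled knockout. It was -0.06 without replicate 2 titled wild type, and 0.02 without both libraries numbered 2.

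**Figure D4:**
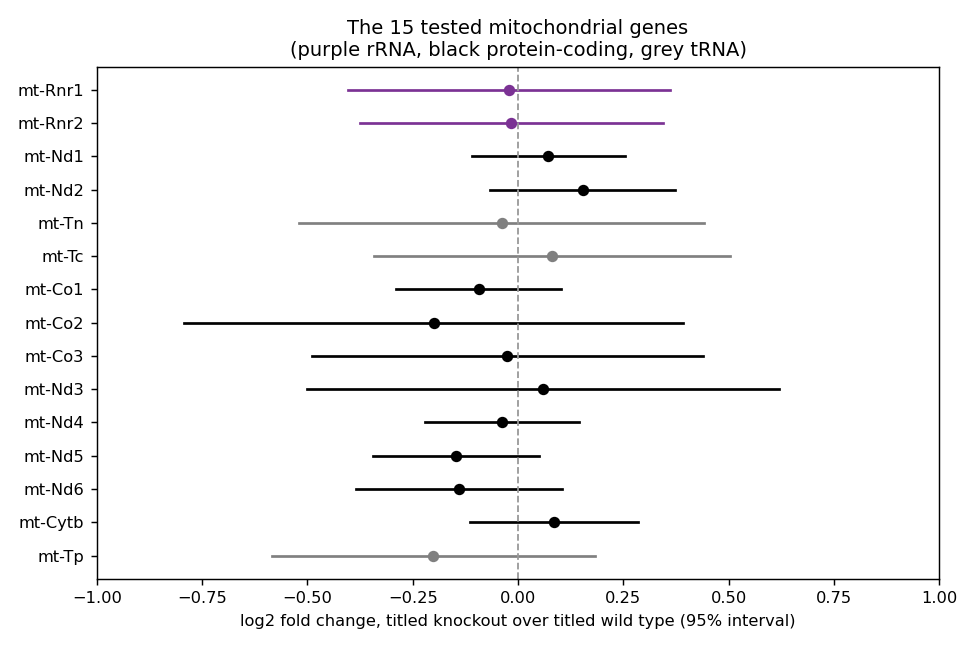
Log2 fold change of the libraries titled knockout over those titled wild type for the 15 tested genes, with 95% intervals from edgeR. All 15 intervals include 0, and they are widest for mt-Co2, from -0.79 to 0.39.

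The intervals of the genes above 10 CPM limit how large a missed difference could be, given the spread of these samples. For the 7 protein-coding genes above 10 CPM, the 95% intervals lay between 0.766-fold and 1.29-fold. With the 2 rRNA genes and mt-Tp, the other members of the 10 above that level, the lowest bound was 0.667-fold, that of mt-Tp. More reads did not always mean a narrower interval: that of mt-Rnr2 ran from 0.771-fold to 1.27-fold. mt-Co1 was at 6497, 6055 and 6792 CPM in the libraries titled wild type and at 6091, 5818 and 6219 CPM in those titled knockout. Its log2 fold change was -0.09 ± 0.09 (SE), with an interval of 0.818-fold to 1.07-fold (edgeR adjusted p = 0.729). Replicates 1 and 3 titled wild type were above all 3 libraries titled knockout, and replicate 2 was not.

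Complex I takes 7 subunits from this genome, of which 6 were tested. mt-Nd1 was at 524, 577 and 586 CPM and at 595, 552 and 626 CPM (log2 0.07, interval -0.11 to 0.25). mt-Nd2 was at 56.5, 57.8 and 56 CPM and at 61.1, 55.9 and 72.7 CPM, a log2 fold change of 0.15 ± 0.10 (SE, edgeR adjusted p = 0.55). Replicate 3 titled knockout was the highest library for both genes. mt-Nd5 had the smallest unadjusted p of the 15, 0.128 (edgeR adjusted p = 0.517), with 145, 122 and 120 CPM against 123, 114 and 113 CPM. Its log2 fold change was -0.15 ± 0.09 (SE), and replicate 1 titled wild type stood above the other libraries. mt-Nd4 was at 57.7, 59.1 and 50.5 CPM and at 53.1, 55.2 and 54.7 CPM (log2 -0.04). mt-Nd3 had only 31 to 46 reads per library, and its interval was correspondingly wide, from -0.50 to 0.62. mt-Nd4l, with 1 to 3 reads per library, was not tested.

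mt-Nd6 is the complex I gene read from the opposite strand to the other protein-coding genes, which makes it the messenger RNA of that strand's precursor. It was at 20.1, 18 and 19.1 CPM in the libraries titled wild type and at 18.7, 17.7 and 15.4 CPM in those titled knockout (log2 -0.14, interval -0.38 to 0.10, edgeR adjusted p = 0.649). Its reads were 0.265%, 0.249% and 0.24% of those on the other 12 protein-coding genes in the first group and 0.257%, 0.256% and 0.206% in the second. Replicate 3 titled knockout was the lowest, and the other libraries of both groups were interspersed (exact permutation p = 0.7). The strand setting of the counting is not given in the sources used here, so reads of mt-Nd6 and of RNA antisense to it cannot be told apart.

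mt-Cytb, the subunit of complex III, was at 290, 335 and 333 CPM and at 332, 314 and 371 CPM (log2 0.08, interval -0.12 to 0.28). Of the other complex IV genes, mt-Co2 was at 2.12, 2.65 and 3.78 CPM and at 2.48, 2.39 and 2.57 CPM. mt-Co3 was at 4.44, 4.11 and 4.9 CPM and at 5.15, 3.56 and 4.55 CPM. Both sets overlapped, and at these levels their intervals reached from -0.79 to 0.44 on the log2 scale. The ATP synthase genes mt-Atp6, with 5 to 13 reads per library, and mt-Atp8, with 0 to 2, were not tested.

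Within the protein-coding genes, each tested gene was also taken as a share of all 13, which does not depend on the scaling of libraries. mt-Nd2 made up 0.743%, 0.799% and 0.703% in the libraries titled wild type and 0.839%, 0.806% and 0.972% in those titled knockout. These groups did not overlap, the closest libraries being the replicates numbered 2, with a log2 difference of 0.22 and an exact permutation p of 0.1. Adjusted over the 18 shares and ratios compared, the p was 0.9. The other 9 tested genes overlapped between groups, with exact permutation p from 0.2 to 0.9. mt-Co1 made up 84.8% ± 0.964 and 83.5% ± 0.389 (SD, n = 3 each, exact permutation p = 0.2).

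The tRNA genes, which are 59 to 75 bases long, had 2531 reads over the 6 libraries, and 93.2% of these fell on mt-Tp, mt-Tc and mt-Tn. mt-Tp, for proline, had 135 to 250 reads per library and ends at base 15422, the last annotated base before the control region. It was at 13.2, 13.1 and 13.1 CPM in the libraries titled wild type and at 8.38, 11.7 and 14.2 CPM in those titled knockout (log2 -0.20, interval -0.59 to 0.18, edgeR adjusted p = 0.693). The libraries titled wild type were nearly equal, and those titled knockout lay on both sides of them. mt-Tn, for asparagine, and mt-Tc, for cysteine, flank the widest gap between neighbouring genes outside the control region, 32 bases. Replication of the light strand starts in this gap. The widest of the remaining gaps, the control region again left aside, was 5 bases. mt-Tn was at 5.49 ± 1.28 and 5.34 ± 0.772 CPM and mt-Tc at 6.03 ± 1.08 and 6.37 ± 0.745 CPM (SD, n = 3 each). As the strand setting is not given, reads of tRNA genes and of RNA antisense to them cannot be told apart. Whether the reads come from cut-out tRNAs or from longer RNA over these genes was not tested.

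The other 19 tRNA genes had at most 15 reads in a library and were not tested. Of these, 15 had at least 1 read, with 171 reads in all, and mt-Ty, for tyrosine, had the most at 5 to 15 per library. mt-Tf, mt-Ti, mt-Td and mt-Tk had 0 reads in all 6 libraries, which allows at most 0.141 to 0.212 CPM in a library (3 reads, counting error only). tRNA reads relative to protein-coding reads were 0.345%, 0.333% and 0.36% in the libraries titled wild type and 0.286%, 0.341% and 0.402% in those titled knockout (exact permutation p = 0.9).

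Nuclear genes serve the same pathway. Of 283 tested genes for mitochondrial genome upkeep, RNA processing, translation, the respiratory complexes and their regulators, edgeR called 0 higher and 1 lower, against 4.59% of all tested genes in either direction. Without replicate 2 titled knockout it called 0. At an unadjusted p under 0.05, 24 of the 283 were lower, against 8.43% of all genes. Negative values were more common than among all genes, 78.8% against 49%, but small, with a median of -0.07 against 0.004. That median was -0.01 without replicate 3 titled wild type, and 55.5% were then negative.

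**Figure D5:**
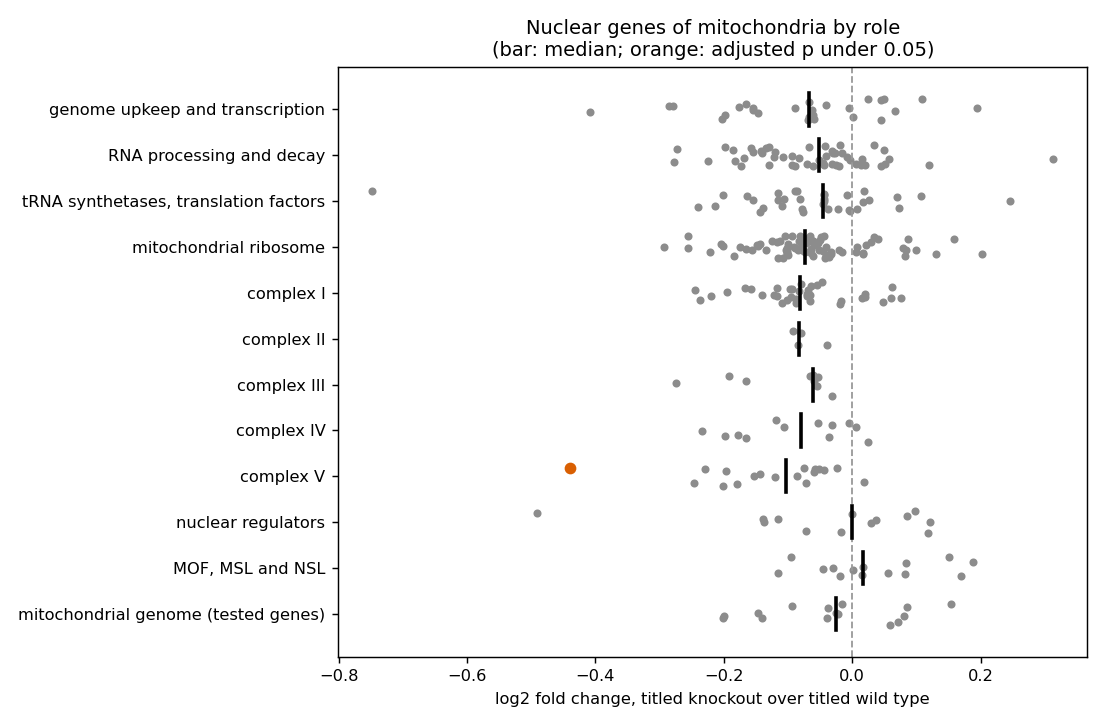
Log2 fold change of each tested nuclear gene by role, and of the 15 tested mitochondrial genes, with a bar at each median and orange for an adjusted p under 0.05. The 1 orange point is Atp5a1, and the medians lie between -0.10 and 0.02.

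Among 27 genes of genome upkeep and transcription, 0 passed in edgeR, DESeq2 or limma-voom, and 2 had an edgeR p below 0.05 before adjustment. Over all tested genes the corresponding shares were 4.59%, 6.07%, 4.74% and 15.4% in turn. Polrmt, the polymerase, was at 33.6, 41.1 and 41.3 CPM in the libraries titled wild type and at 41.5, 41.1 and 50.3 CPM in those titled knockout (log2 0.19 ± 0.11 SE, adjusted p = 0.494). Tfam, which packages the genome and starts transcription, was at 98.6 ± 5.89 and 98.3 ± 5.64 CPM (SD, n = 3 each). The smallest p was that of Top1mt, the mitochondrial topoisomerase, at 18.9 ± 2.9 and 14.2 ± 1.21 CPM (edgeR adjusted p = 0.142).

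Of 51 genes that cut, modify or degrade mitochondrial RNA, the same 3 tools called 0, and 3 had an edgeR p below 0.05 before adjustment. For this list and those that follow, the same shares over all tested genes apply: 4.59%, 6.07% and 4.74% called, and 15.4% unadjusted. The smallest p was that of Hsd17b10, a subunit of the mitochondrial RNase P that frees the 5' ends of tRNAs, at 18.6 ± 1.06 and 15.3 ± 0.695 CPM (edgeR adjusted p = 0.208). Of 35 tRNA synthetases and translation factors, the 3 tools called 0, with 4 at an unadjusted p under 0.05 in edgeR. Qrsl1, of the enzyme that makes glutaminyl-tRNA, had the smallest, at 35.1 ± 1.1 and 41.6 ± 0.983 CPM (edgeR adjusted p = 0.126). Lars2, the leucyl-tRNA synthetase, named here after its values were seen, was counted at 19502, 12971 and 19283 CPM in the libraries titled wild type and at 15719, 7479 and 7622 CPM in those titled knockout. That is above mt-Rnr2 in every library but replicate 3 titled knockout, whereas Lrpprc, the next of the 35, averaged 250.5 CPM in the libraries titled wild type. Where in the gene these reads lie is not given, so the counts are uncertain as a level of the synthetase messenger RNA. The Lars2 groups overlapped (log2 -0.75 ± 0.27 SE, edgeR adjusted p = 0.198). Of 80 genes of the mitochondrial ribosome, the 3 tools called 0, with 5 at an unadjusted p under 0.05 in edgeR. Mrps35 had the smallest, at 66.1 ± 3.53 and 55.3 ± 2.3 CPM (edgeR adjusted p = 0.0996).

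Among the 79 nuclear subunits of the respiratory complexes and ATP synthase, 69 had negative values (87.3%), against 49% of all tested genes. The share for the 79 alone was not computed with libraries left out. Over the 283 nuclear genes that include them, it was 78.8%, and 55.5% without replicate 3 titled wild type. The called gene was Atp5a1, the alpha subunit of ATP synthase, the complex that mt-Atp6 and mt-Atp8 also belong to. It fell from 1691 ± 133 to 1247 ± 48.1 CPM (log2 -0.44 ± 0.09 SE, edgeR adjusted p = 0.0153). Without replicate 2 titled knockout the log2 fold change was as large, -0.44, and the edgeR adjusted p was 0.0772. Complex II, which takes no subunit from the mitochondrial genome, had 4 tested genes with a median log2 fold change of -0.08. The medians were -0.08 for complex I, -0.06 for complex III, -0.08 for complex IV and -0.10 for complex V. The smallest p in complexes I, III and IV were those of Ndufs7 (edgeR adjusted p = 0.0871), Uqcrc1 (0.105) and Cox5b (0.26). DESeq2 called Uqcrc1 as well (adjusted p = 0.0363).

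Of 13 nuclear regulators of mitochondrial genes, edgeR called 0, and 1 had a p below 0.05 before adjustment. That was Sirt1, a deacetylase, at 34 ± 4.75 and 24.1 ± 3.13 CPM (edgeR adjusted p = 0.0633 and DESeq2 adjusted p = 0.0184). Of 14 genes of KAT8 and its MSL and NSL partners, the 3 tools called 0, with 1 at an unadjusted p under 0.05 in edgeR, Msl2 (adjusted p = 0.302). For both lists, edgeR, DESeq2 and limma-voom called 4.59%, 6.07% and 4.74% of all tested genes. At an unadjusted edgeR p under 0.05 it was 15.4%. Kat8 was at 29.5 ± 1.92 and 31.3 ± 0.98 CPM (edgeR adjusted p = 0.768).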

How the data were processed

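The deposited tables hold 1 whole-number read count per gene for each of 6 libraries, not normalised, per the file headers. The labels' protocols describe total RNA with rRNA removed by beads. Among the tools in the submitters' processing notes are STAR (2.5.3a), featureCounts (2.0.0) and limma, whose roles are not stated, and the build is mm10. The annotation release is not given in the sources used here, nor are the strand setting and the treatment of multiply matching reads. The other 9 samples (ChIP and input) are not analysed here. The members and lists were chosen with earlier results of these data known.

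Symbols came from a table of gene names (54587 of 55335 identifiers matched) and positions and lengths from RefSeq. All genes passing edgeR's filterByExpr function (13077) were fitted with edgeR 4.0.16 in R 4.3.3 (TMM, quasi-likelihood, no covariate, Benjamini-Hochberg over all tested genes). The SE came from the fold change and the F statistic. Shares and ratios were compared by exact two-sided permutation tests of log2 values. Named genes were the members, Msl2, Kat8, Polrmt, Tfam and, for each list, called genes or else the gene with the smallest p. Alternatives were RLE scaling, library totals, scaling without mt genes, other filters, DESeq2 1.42.0, limma-voom (limma 3.58.1), a replicate block and omission of libraries. Leaving out both libraries numbered 2 was chosen after seeing the data. The fit was tested on simulated data. All pairs of libraries differed by more than counting noise (chi-square per degree of freedom of at least 7.38). No molecular identifiers are named, so intervals of shares and floors cover counting error only. Depth was 14092278 to 20803227 counts per library.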

Additional observations from a re-analysis of the deposited data

How the results depend on the processing

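edgeR called 0 mitochondrial genes under every alternative run, with 0 at an unadjusted p under 0.05 as reported, and DESeq2 and limma-voom called 0 as well. The smallest adjusted p of a member ran from 0.222 (replicate block) to 0.716. At an unadjusted p under 0.05, 1 member passed with the replicate block, without replicate 2 titled knockout and without replicate 3 titled knockout, and 0 in the other settings. Without any filter, 33 members were tested. Of the 15 tested members, 7 kept the sign of their log2 fold change in all settings (mt-Nd1, mt-Nd2, mt-Co1, mt-Nd5, mt-Nd6, mt-Cytb and mt-Tp), and 0 of them were called. The log2 fold change of mt-Rnr2 ran from -0.22 to 0.20 and that of mt-Rnr1 from -0.25 to 0.20, the upper values without both libraries numbered 2. The log2 difference of the mitochondrial share ran from -0.13 to 0.04 with single libraries left out, and was 0.09 without both libraries numbered 2. The count of called nuclear genes, 1 here, was 4 without a filter, 3 in DESeq2, 3 with the replicate block and 0 without both libraries numbered 2. It ran from 0 to 2 with single libraries left out. Over all genes, 600 were called here, 1203 of 26696 without a filter, 392 of 9635 at a mean log2 CPM of at least 2, 946 with the replicate block, 380 without replicate 1 titled wild type and 399 without both libraries numbered 2. The replicate numbers gave no evidence of pairing for replicate 1 (correlation of deviations 0.03, under the set threshold of 0.1). For replicates 2 and 3 the correlations were 0.21 and 0.40, above it. Whether libraries of the same number are pairs is therefore not settled, and the block is given only as an alternative. Depth limits the genes at or under 10 CPM, where intervals reached from -0.79 to 0.62 on the log2 scale. The causes of these differences were not tested.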
